A study of Mus musculus with 16 samples.

Results

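Brown adipose tissue (BAT) was compared with white adipose tissue (WAT) in female mice with an adipose knockout of GR, the receptor for glucocorticoid hormones (gene Nr3c1). The comparison takes the 4 arrays titled as BAT of adipose GR knockouts and the 4 titled as WAT of adipose GR knockouts, 8 of the 16 arrays of the series. The other 8 arrays hold BAT and WAT of controls, which the series calls wild-type, and serve here for reference. The knockout is described as specific to adipose tissue, which all knockout samples of both depots share, so the depot contrast is drawn between knockout tissues only. Strain, age, the fat pads sampled and the Cre line or promoter behind the deletion are not given in the sources used here, and no treatment is recorded. The series calls the 4 arrays of a group biological replicates.

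Brown fat burns fuel for heat. Its adipocytes hold many mitochondria and carry uncoupling protein 1 (Ucp1), which lets protons bypass ATP synthase, and noradrenaline acting through cAMP switches both lipolysis and Ucp1 transcription on. White fat stores triglyceride, and visceral and subcutaneous white pads often enclose lymph nodes, while interscapular brown fat lies against skeletal muscle. GR binds glucocorticoid and regulates adipocyte differentiation, lipolysis and inflammatory genes in both depots.

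The arrays of WAT knockout 1 and WAT knockout 2 differed by no more than spot noise. The SD of their log2 difference over 7710 bright probes was 0.0864, against 0.0935 from the noise between repeated spots, and 0 of those probes were more than 2-fold apart. No other pair came close, the lowest SD among the remaining 119 being 0.213. Both were averaged to 1 sample, WAT knockout 1-2, so the comparison rests on 4 BAT samples and 3 WAT samples, 7 of 15 in the series. The 75th percentile of the signal was 298, 320.2, 497 and 486 in BAT knockouts 1 to 4 and 733, 700, 735 and 486 in WAT knockout arrays 1 to 4. Each array detected between 66.7% and 83.6% of its probes well above background, and precision is limited by how few arrays there are.

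The WAT knockout samples were not alike, and this bears on every result. To summarise a marker list in a sample, each gene's log2 level was set against its average across the 15 samples, and the middle value of these deviations is called the list level. Markers shared by all adipocytes were at -2.43 in WAT knockout 1-2, at -1.74 in WAT knockout 3 and at 0.72 in WAT knockout 4. B cell markers ran the other way, at 5.04, 4.72 and -1.31 in the same order. Lymph node stroma and sinus markers were at 3.17, 2.93 and 0.18. WAT knockouts 1-2 and 3 were thus rich in lymphoid transcripts and poor in adipocyte transcripts, and WAT knockout 4 was the reverse. BAT knockouts differed among themselves in skeletal muscle markers, at 1.86, 4.98, 4.46 and 2.05. Results are therefore given against all 3 WAT samples and, for most lists and some genes, again against WAT knockout 4 alone. This choice was made after the values were seen, and the lone WAT sample is assumed to vary like the other groups. A call given only against all 3 WAT samples need not hold against WAT knockout 4 alone.

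**Figure D1:**
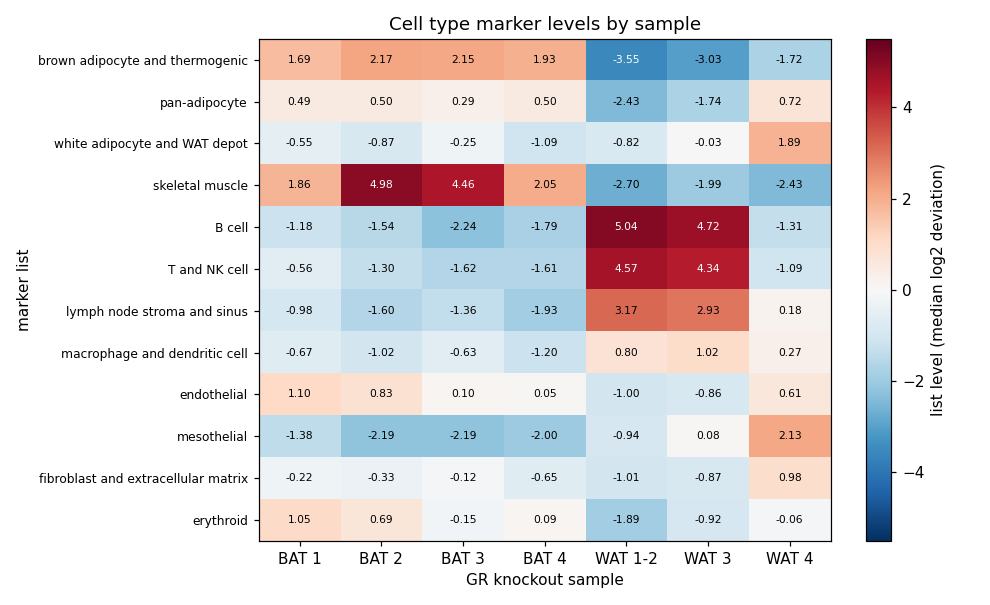
Level of 12 marker lists (rows) in the 7 GR knockout samples (columns); each cell gives the median log2 deviation of the list's genes from their mean over all samples, coloured from blue (low) to red (high). WAT 1-2 and WAT 3 are high for B cell, T cell and lymph node markers and low for adipocyte markers, while WAT 4 has an adipocyte level of 0.72, and BAT 2 and BAT 3 have the highest muscle levels, 4.98 and 4.46.

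Ucp1, the gene that gives brown fat its heat, separated the depots most. The 250 bases before its start site, and before that of Fabp3, the fatty acid binding protein gene with the smallest adjusted p of the comparison together with Cpt1b, are shown because both genes were high in every BAT sample. Both come from RefSeq on GRCm38.p6, plus strand, 5′ to 3′, at chr8:83290098-83290347 for Ucp1 and chr4:130308488-130308737 for Fabp3. Capitals mark TGACG, the core of the element bound by cAMP-responsive factors, searched on both strands.
Ucp1: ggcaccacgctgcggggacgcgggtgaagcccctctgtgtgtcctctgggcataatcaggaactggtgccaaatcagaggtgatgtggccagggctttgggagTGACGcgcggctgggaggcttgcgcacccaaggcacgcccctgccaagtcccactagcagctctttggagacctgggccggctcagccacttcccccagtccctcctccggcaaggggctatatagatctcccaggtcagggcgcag
Fabp3: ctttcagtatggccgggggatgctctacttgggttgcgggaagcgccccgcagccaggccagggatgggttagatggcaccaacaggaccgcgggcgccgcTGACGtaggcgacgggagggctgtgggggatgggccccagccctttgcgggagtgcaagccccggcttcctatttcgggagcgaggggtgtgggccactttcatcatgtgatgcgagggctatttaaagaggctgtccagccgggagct
The letters start at position -147 in Ucp1 and at -149 in Fabp3, counted from the start site. They occur in 21.0% of all 27025 promoter windows of the table (250 bases before to 50 after the start) and in 28.0% of the 13235 windows of genes tested. Of the lists below, they occur in 7 of 22 windows of brown adipocyte genes and 15 of 40 of respiratory chain genes. Fatty acid oxidation genes had them in 10 of 26, muscle genes in 3 of 24, lymph node genes in 1 of 13 and pan-adipocyte genes in 0 of 17. A second motif, AAGGTCA, was searched too and occurs in 3.64% of windows of genes tested. In the same order of lists it was in 1 of 22, 3 of 40, 1 of 26, 0 of 24, 1 of 13 and 0 of 17. A match describes these letters and is not a binding site.

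The Ucp1 level, given as log2 signal relative to the array's 75th percentile, was 8.99, 8.65, 8.24 and 8.35 in BAT knockouts 1 to 4. In WAT knockouts 1-2, 3 and 4 it was -5.06, -2.88 and -1.10. The groups lay far apart, and WAT knockout 4 was the nearest WAT sample. The difference, BAT minus WAT, was 11.58 ± 0.69 (SE) on the log2 scale (limma adjusted p = 2.76e-07), or 9.66 against WAT knockout 4 alone (adjusted p = 4.24e-06). Ucp1 was well above background on all BAT knockout arrays and on 3 of the 4 WAT knockout arrays.

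Mb encodes myoglobin, the oxygen store of muscle, which brown adipocytes also make. Its level was 2.14, 5.52, 5.35 and 3.23 in the BAT samples against -7.45, -6.51 and -3.19 in the WAT samples. The difference was 9.78 ± 1.08 (adjusted p = 2.69e-05), and Mb was well above background on 1 of the 4 WAT knockout arrays. The BAT samples with most Mb, knockouts 2 and 3, were also those with most muscle markers, and the part of muscle in the Mb result was not tested.

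Ccl19 encodes the chemokine with which lymph node stroma draws in T cells and dendritic cells. It was at -0.18, -0.80, -1.36 and -1.05 in BAT and at 6.72, 6.47 and 1.53 in WAT knockouts 1-2, 3 and 4. Marco, a scavenger receptor of sinus macrophages, was at -1.31, -1.65, -1.95 and -1.0 in BAT and at 7.21, 7.03 and 0.28 in WAT. In neither gene did the groups overlap, but WAT knockout 4 lay far below the other WAT samples. Over 3 WAT samples the differences were -5.76 ± 1.19 for Ccl19 (adjusted p = 0.00282) and -6.32 ± 1.45 for Marco (adjusted p = 0.00535). Set against WAT knockout 4 by itself, they were -2.38 (adjusted p = 0.328) and -1.76 (adjusted p = 0.546), so both calls rest on WAT knockouts 1-2 and 3. By these markers the BAT label holds in all 4 BAT samples, and the WAT samples hold little brown adipocyte RNA while WAT knockouts 1-2 and 3 hold high levels of lymph node transcripts.

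Nr3c1, the targeted gene, did not separate the knockout depots. BAT knockouts 1 to 4 had levels of 1.30, 1.30, 1.45 and 1.76, and the WAT samples overlapped them with 1.64, 1.36 and 1.58. The difference was -0.07 ± 0.19 (95% interval -0.49 to 0.34, adjusted p = 0.821). Of its other 3 probes, those well above background on all arrays differed by 0.19 and -0.04, and the remaining one, detected on 1 BAT and 3 WAT arrays, by -0.67. Which exons were deleted, and whether the probes lie in them, is not given, so these are levels of the probed sequence in tissue RNA. An exact permutation test of 4 against 3 samples cannot go below a two-sided p of 0.0571. Adjusted p-values here therefore come from limma, which shares the spread over all genes. All 4 groups, controls included, also share 1 spread per gene in the fit, although their spreads were unlike. The median SD was 0.62 in WAT knockouts, 0.38 in BAT knockouts, 0.37 in WAT controls and 0.19 in BAT controls.

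**Figure D2:**
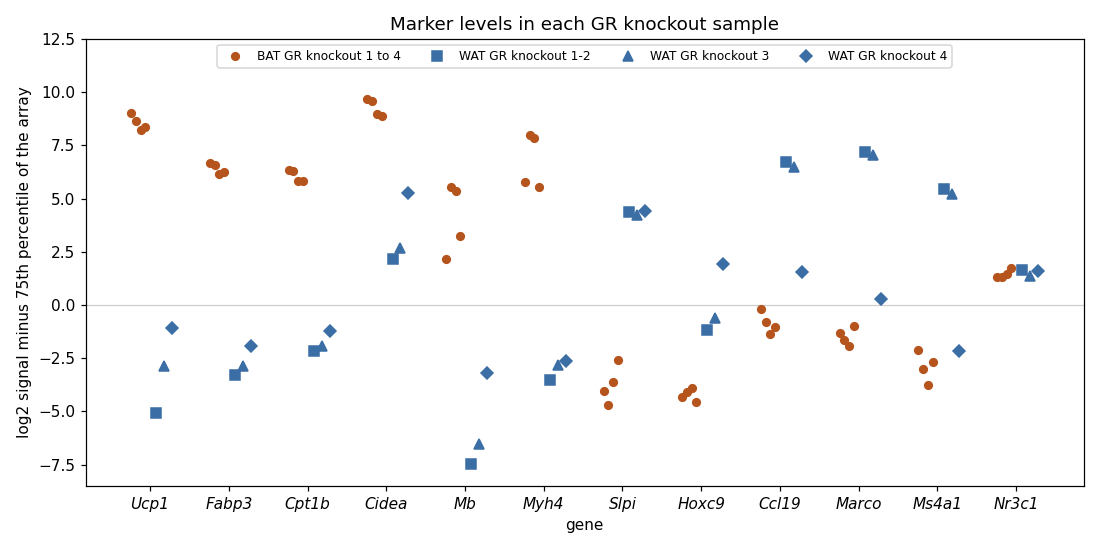
Level (log2 signal relative to the array's 75th percentile) of 12 genes in each GR knockout sample; circles are BAT 1 to 4 and the other symbols WAT 1-2, 3 and 4. Ucp1, Fabp3, Cpt1b, Cidea, Mb and Myh4 are high in BAT, Slpi and Hoxc9 are high in all WAT samples, Ccl19, Marco and Ms4a1 are high in WAT 1-2 and WAT 3 only, and Nr3c1 overlaps.

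Across the array, 7683 of 25107 genes and unnamed probes passed an adjusted p of 0.05, which is 30.6%. Of these, 4183 were higher in BAT (16.7% of all) and 3500 were lower (13.9%). The median difference of all features was -0.09. The groups did not overlap in 25.5% of features, with BAT higher in 14.8% and lower in 10.7%. A list's counts against all 3 WAT samples are read against these shares. Fewer features were called with normexp background correction (2328 higher and 1302 lower) and against WAT knockout 4 alone. List counts under those settings are not read against the shares above. A smaller count there need not be particular to the list. Each count below gives members past the adjusted p of 0.05 out of those tested, and the lists were chosen with results of these data known. In tissue RNA, fewer cells of a type and less RNA per cell cannot be told apart.

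The brown adipocyte program was higher in knockout BAT with nearly all of its members. Of 29 genes tested, 24 were higher and 0 lower, with a median difference of 4.77, and the groups did not overlap for the same number, 24. Cpt1b, the muscle-type carnitine palmitoyltransferase that admits fatty acids to mitochondria, was at 6.35, 6.29, 5.81 and 5.82 in BAT against -2.16, -1.91 and -1.24 in WAT (7.84 ± 0.26, adjusted p = 7.7e-10). Fabp3 was at 6.67, 6.55, 6.16 and 6.26 against -3.30, -2.88 and -1.94 (9.12 ± 0.29, adjusted p = 7.7e-10). The spread within either depot was small beside these gaps.

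Pank1, which starts coenzyme A synthesis, was at 2.38, 2.79, 2.82 and 2.83 in BAT and at -3.51, -3.07 and -2.59 in WAT, a 54.3-fold difference (adjusted p = 1.05e-08). Cox7a1, a respiratory chain subunit of muscle and brown fat, was 309-fold higher (8.27 ± 0.66, adjusted p = 2.57e-06). The fatty acid transporter gene Slc27a2 was 373-fold higher (8.54 ± 0.74, adjusted p = 4.5e-06) and was well above background on 2 of the 4 WAT knockout arrays. The transcriptional regulators Ppargc1a (4.85 ± 0.53), Prdm16 (2.78 ± 0.28), Ebf2 (3.52 ± 0.49) and Zic1 (4.77 ± 0.35), which drive or mark brown adipocyte identity, were called higher as well. The members that did not pass were Bmp8b, Esrrg, Lhx8, Fgf21 and Eva1b, between -0.50 and 0.76. With WAT knockout 4 as the sole WAT sample, the count was 24 higher and 1 lower, with a median of 3.86.

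Mitochondrial genes as a class followed. Of 51 subunits of the respiratory chain and ATP synthase, 49 were higher and 0 lower, with a median of 2.67, and the exceptions were Atp5g3 (0.74, adjusted p = 0.0551) and Atp5g1 (-0.77, adjusted p = 0.119), which encode the same membrane ring subunit. Cox7b of complex IV was at 7.18, 7.02, 6.72 and 6.87 in BAT against 3.63, 3.61 and 4.44 in WAT (3.05 ± 0.22, adjusted p = 1.38e-06). Sdhd of complex II (3.36 ± 0.27) and Uqcrc1 of complex III (3.37 ± 0.27) were each 10.3-fold higher. When WAT knockout 4 alone stood for WAT, 45 of 51 were higher, with a median of 1.80.

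Of 31 fatty acid oxidation and TCA cycle genes, 30 were higher, with a median of 3.33. Suclg1, a subunit of succinyl-CoA ligase, was at 7.42, 7.59, 7.47 and 7.79 in BAT against 3.40, 3.48 and 4.79 in WAT (3.68 ± 0.27, adjusted p = 1.52e-06). Dlst, the transsuccinylase of the oxoglutarate dehydrogenase complex, was higher too (3.33 ± 0.24, adjusted p = 1.11e-06). The member that was lower was Cpt1a, the liver-type carnitine palmitoyltransferase (-1.43 ± 0.19, adjusted p = 0.000123), with no overlap between groups. The carnitine palmitoyltransferase isoforms thus went opposite ways, Cpt1b up and Cpt1a down in BAT, and the same held in controls (7.70 and -1.64). In the comparison with WAT knockout 4 alone, 26 were higher and 1 lower, with a median of 1.97.

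Fuel handling genes beyond the mitochondrion were also mostly higher. Of 27 creatine and glycolysis genes 21 were higher and 0 lower, with a median of 2.13. Pdk4, the kinase that shuts pyruvate out of oxidation and a classical glucocorticoid-induced gene, was at 6.52, 6.69, 6.77 and 6.86 in BAT against -0.29, 0.09 and 2.02 in WAT (6.10 ± 0.41, adjusted p = 6.1e-07). Ldhb, a lactate dehydrogenase subunit, was 29.9-fold higher (4.90 ± 0.38), and Pgk1, a glycolytic kinase, 5.14-fold (2.36 ± 0.17). Among the 6 members that did not pass were the creatine synthesis genes Gatm (-0.57, adjusted p = 0.402) and Gamt (-0.29, adjusted p = 0.717) and the creatine kinase Ckb (0.04, adjusted p = 0.958). Ckmt2, a mitochondrial creatine kinase of striated muscle and brown fat, was at 1.34, 4.76, 4.24 and 1.98 in BAT, highest in the samples with most muscle markers, and at -6.19, -3.46 and -5.65 in WAT (8.18 ± 1.23, adjusted p = 0.000299; well above background on 2 of 4 WAT knockout arrays). Against WAT knockout 4 alone 11 of the 27 were higher and 1 lower, with a median of 0.91.

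Of 20 genes of branched-chain amino acid catabolism 18 were higher, with a median of 2.01. Dbt, a core subunit of the branched-chain ketoacid dehydrogenase, was at 1.29, 1.65, 1.41 and 1.46 against -1.60, -1.34 and -0.52 (2.60 ± 0.25, adjusted p = 8.91e-06). Its kinase gene Bckdk (2.07 ± 0.27) and Acad8, an acyl-CoA dehydrogenase of valine breakdown (2.15 ± 0.27), were higher too. Bcat1, the cytosolic transaminase, was lower (-1.64 ± 0.44, adjusted p = 0.0133), and Bcat2, the mitochondrial one, did not pass (0.17, adjusted p = 0.810). Set against WAT knockout 4 by itself, 5 were higher and 1 lower, with a median of 0.45.

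**Figure D3:**
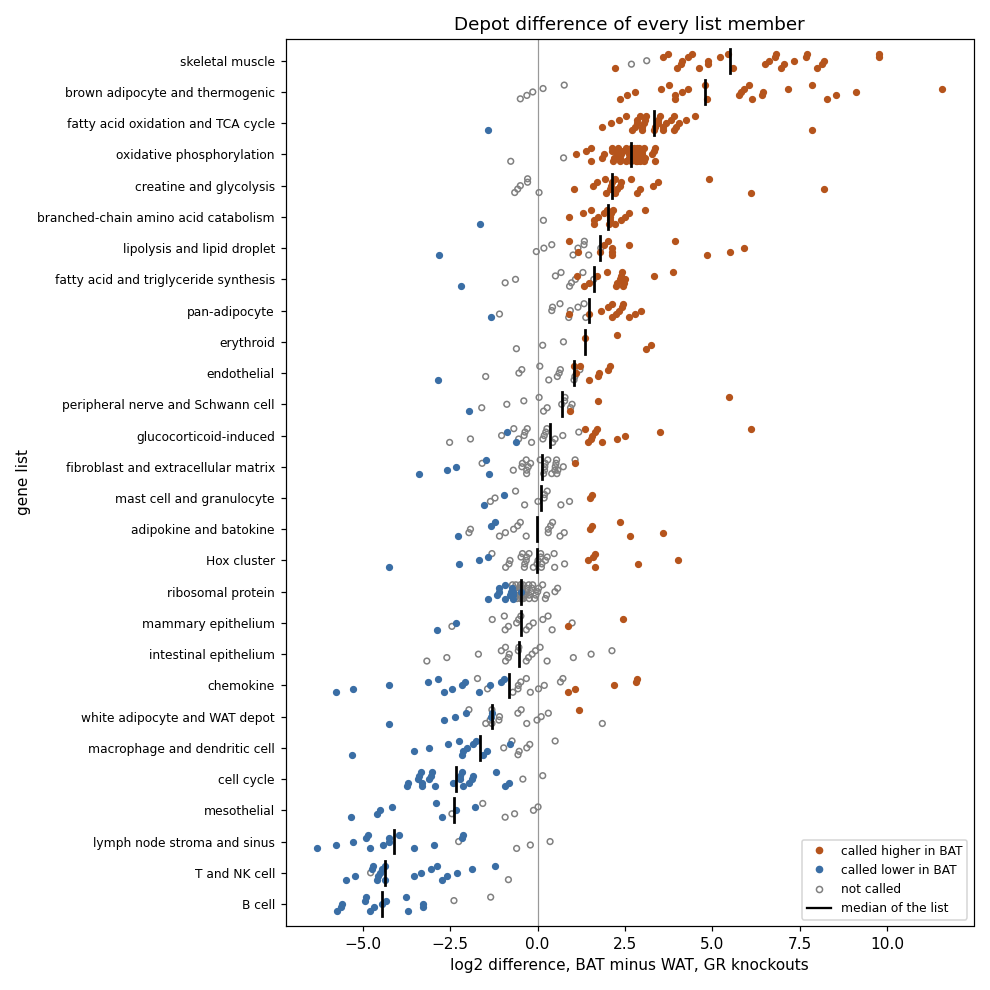
Log2 difference, BAT minus WAT in GR knockouts (horizontal axis), of every tested member of 28 gene lists (vertical axis, ordered by median); filled points passed an adjusted p of 0.05 and bars mark list medians. Muscle, brown adipocyte and mitochondrial lists lie to the right with medians of 2.67 to 5.52, and B cell, T and NK cell and lymph node lists lie to the left with medians of -4.44 to -4.11.

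Genes that all adipocytes use did not give a depot difference independent of the WAT samples taken. Of 23 pan-adipocyte markers 13 were higher and 1 lower, with a median of 1.48. Pparg, the master regulator of adipocyte differentiation, was at 5.36, 5.34, 5.31 and 5.64 in BAT and at 1.34, 1.98 and 4.59 in WAT (2.77 ± 0.53, adjusted p = 0.00161). Slc2a4, the insulin-regulated glucose transporter gene, was at 7.06, 7.08, 6.76 and 6.49 against 2.48, 3.19 and 5.99 (2.96 ± 0.60, adjusted p = 0.00247). In both genes WAT knockout 4 lay close below the BAT samples, by 0.82 for Pparg and 0.85 for Slc2a4 from the BAT mean, while the other WAT samples lay far below. Adipoq, encoding adiponectin, differed by 0.64 ± 0.45 (95% interval -0.33 to 1.61, adjusted p = 0.327). With WAT knockout 4 as the sole WAT sample, 1 of the 23 was higher and 4 were lower, with a median of -0.13; without WAT knockout 4, 21 were higher, with a median of 2.33.

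Lipid synthesis and lipolysis genes behaved like the adipocyte markers. Of 25 fatty acid and triglyceride synthesis genes 15 were higher and 1, Mogat2 (-2.19), was lower, with a median of 1.61. Acacb, the mitochondrial acetyl-CoA carboxylase, was at 7.87, 7.51, 7.34 and 7.09 against 2.19, 2.92 and 5.63 (3.87 ± 0.56, adjusted p = 0.000226) and kept its call against WAT knockout 4 alone (1.82, adjusted p = 0.00111). Mlxipl, encoding the carbohydrate-responsive factor ChREBP, was higher as well (3.32 ± 0.57, adjusted p = 0.000793). Acly, ATP citrate lyase, was higher by 2.47 ± 0.49 (adjusted p = 0.00213), but by 0.75 (adjusted p = 0.181) against WAT knockout 4 alone. With that sample alone the list had 2 higher and 5 lower members and a median of -0.08.

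Of 23 lipolysis and lipid droplet genes 13 were higher and 1 lower, with a median of 1.79. Cidea, a droplet protein abundant in brown fat, was at 9.66, 9.57, 8.99 and 8.86 against 2.17, 2.67 and 5.26 (5.90 ± 0.54, adjusted p = 6.18e-06). Plin5, which tethers droplets to mitochondria, was 29.0-fold higher (4.86 ± 0.69, adjusted p = 0.000202). The receptors through which noradrenaline acts divided. Adrb1, the beta-1 receptor, was at 1.74, 1.93, 1.92 and 2.23 against -2.97, -2.22 and -0.71 (3.93 ± 0.40, adjusted p = 1.33e-05), and Adra2a, the inhibitory alpha-2A receptor, was lower (-2.82 ± 0.43, adjusted p = 0.000348). When WAT knockout 4 alone stood for WAT, the list had 4 higher and 3 lower members, with a median of -0.05.

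**Figure D4:**
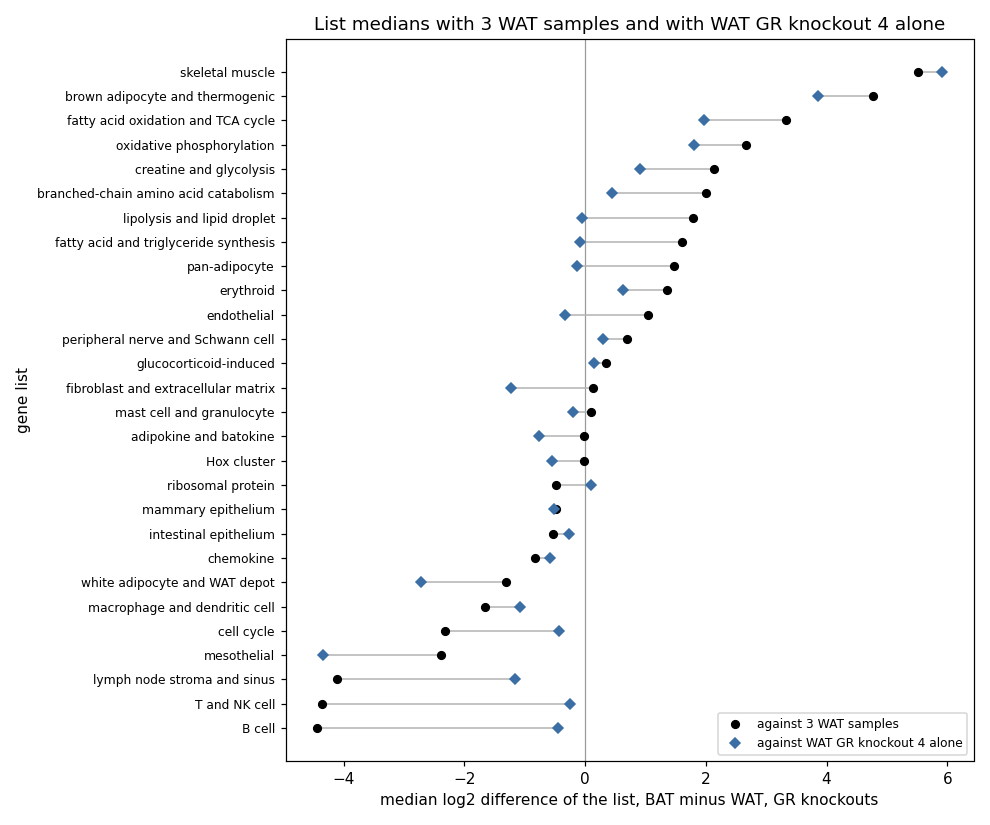
Median log2 difference, BAT minus WAT in GR knockouts, of 28 gene lists against all 3 WAT samples (circles) and against WAT GR knockout 4 alone (diamonds). The brown adipocyte median moves from 4.77 to 3.86 and the respiratory chain median from 2.67 to 1.80, whereas the pan-adipocyte median moves from 1.48 to -0.13 and the B cell median from -4.44 to -0.44.

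White depot genes were lower in BAT in part. Of 21 listed genes 6 were lower and 1, the imprinted gene Peg3 (1.18 ± 0.39), was higher, with a median of -1.31. Hoxc9, a positional homeobox gene, was at -4.33, -4.10, -3.88 and -4.56 in BAT and at -1.16, -0.63 and 1.94 in WAT (-4.26 ± 0.56, adjusted p = 0.000111). Psat1, of serine synthesis, was 6.44-fold lower (-2.69 ± 0.40, adjusted p = 0.000271) and Mest, an imprinted gene that tracks fat expansion, 4.18-fold lower (-2.06 ± 0.40, adjusted p = 0.00174). Lep, encoding leptin, was lower with overlapping groups (-1.34 ± 0.48, adjusted p = 0.0463). This list moved opposite to the lymphoid lists when WAT samples were left out: against WAT knockout 4 alone 14 of 21 were lower and 0 higher, with a median of -2.71.

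Hox genes, which specify position along the body axis, were called at close to the share of all features. Of 33 tested, 6 were higher and 4 lower, 10 in all beside 30.6% of all features. Hoxa4 was at 0.90, 0.77, 1.20 and 0.89 in BAT and at -3.99, -3.33 and -1.93 in WAT (4.02 ± 0.35, adjusted p = 4.8e-06), and its other probe differed by 1.08. Hoxa5 (2.86 ± 0.43), Hoxa2 (1.44 ± 0.41), Hoxa7 (1.57 ± 0.45) and Hoxc5 (1.65 ± 0.42) were higher as well. The lower members were Hoxc9 (well above background on 3 of 4 BAT knockout arrays), Hoxd9 (-1.43 ± 0.32), Hoxa10 (-2.26 ± 0.62) and Hoxb9 (-1.68 ± 0.54). The median of the list was -0.02, and with normexp 3 were higher and 1 lower.

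Skeletal muscle transcripts were the highest list of all in BAT. Of 30 markers 28 were higher and 0 lower, with a median of 5.52, and for all 30 every BAT sample lay above every WAT sample. Myh4, the fast IIb myosin heavy chain, was at 5.79, 7.99, 7.83 and 5.53 in BAT against -3.53, -2.82 and -2.63 in WAT (9.78 ± 0.93, adjusted p = 8.41e-06). Tnnc2, fast troponin C, was 280-fold higher (8.13 ± 0.91) and Myh2, the IIa heavy chain, 252-fold (7.98 ± 0.95). Myh8, the perinatal heavy chain, was 648-fold higher (9.34 ± 0.96), though its other probe, well above background on no knockout array, differed by -0.13. Myot, a Z-disc protein gene, was well above background on no WAT knockout array and was at least 125.5-fold higher (adjusted p = 0.000195), against the level a spot needs to be well above background. The probes of Xirp2, also of the Z-disc, disagreed: the one used was well above background on no WAT knockout array and was at least 101-fold higher (adjusted p = 7.7e-05), while the probe detected on all knockout arrays differed by 3.24 and another by 0.29. Myh8, Myot and Xirp2 are among the largest rises and are not on the list of 30. The summed signal of the 30 listed markers was 336 to 1902 times the arrays' 75th percentile in BAT knockouts and 19.8 to 34.2 times in WAT knockouts, and each listed marker was well above background on at least 1 array of either depot. In BAT controls this sum ran from 50.9 to 462. Leaving out BAT knockouts 2 and 3, the median was 4.18 and 22 of 30 were higher. Without those samples respiratory chain genes had a median of 2.69 with 49 of 51 higher and 1 lower. The BAT knockouts that remained, 1 and 4, still had muscle sums of 336 and 344. The part of attached muscle in the creatine, glycolysis and mitochondrial results was not tested.

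Lymphocyte transcripts were the lowest lists in BAT, on the strength of the same WAT samples. Of 15 B cell genes 13 were lower and of 21 T and NK cell genes 19 were lower, with 0 higher in either and medians of -4.44 and -4.36. With normexp background correction these counts were 8 of 15 and 8 of 21. Ms4a1, encoding CD20, was at -2.12, -3.0, -3.78 and -2.68 in BAT and at 5.43, 5.21 and -2.14 in WAT (-5.73 ± 1.49, adjusted p = 0.0107). Pou2af1, a B cell coactivator, was at -2.46, -2.65, -3.65 and -2.97 against 5.16, 5.01 and -2.06 (-5.64 ± 1.43, adjusted p = 0.00941). WAT knockout 4 lay inside the BAT range for Ms4a1 and just above it for Pou2af1. Against it alone the B cell list had 0 members called and a median of -0.44, and the T and NK cell list had 0 called and a median of -0.26. The summed signal of B cell markers was 2.99 to 5.33 times the 75th percentile in BAT knockouts, 345 and 288 times in WAT knockouts 1-2 and 3 and 4.82 times in WAT knockout 4. In WAT controls it ran from 14.2 to 143.

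Lymph node stroma and sinus genes went the same way, with 14 of 18 lower (8 with normexp) and a median of -4.11. Every BAT sample lay below every WAT sample for 11 of the 18, beside 10.7% of all features. The same held for 3 of 15 B cell genes and 3 of 21 T and NK cell genes. Lyve1, of lymphatic endothelium, was among the 11: it was at -3.14, -3.07, -1.60 and -3.50 against 2.18, 1.89 and 0.75 (-4.43 ± 0.43, adjusted p = 9.6e-06). Bst1 (-4.25 ± 0.58, detected on 2 of 4 BAT arrays) and the ficolin gene Fcna (-2.95 ± 0.41, WAT 0.35, 0.31 and 0.02) were of the same kind. In the comparison with WAT knockout 4 alone, these genes stayed lower, at -3.58, -2.26 and -2.74, within a list of 4 lower of 18 and a median of -1.16.

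Proliferation genes were lower in BAT, and mostly not against WAT knockout 4. Of 24 cell cycle genes 22 were lower and 0 higher, with a median of -2.32. Cenpe, a mitotic motor, was at -2.20, -2.85, -2.41 and -2.35 in BAT and at 2.48, 2.26 and -0.90 in WAT (-3.73 ± 0.61, adjusted p = 0.000556), and its other probes differed by -1.08 and -2.02. Ccnb2, encoding cyclin B2, was 9.81-fold lower (-3.29 ± 0.66, adjusted p = 0.00223). The probe used for Cdk1, the mitotic kinase gene, was well above background on no BAT knockout array and was at least 8.50-fold lower (adjusted p = 0.00206), but its other probe, detected on 1 BAT and 2 WAT arrays, differed by -0.38. With normexp 14 of the 24 were lower. Against WAT knockout 4 alone 1 of 24 was lower, with a median of -0.43.

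The count for ribosomal protein genes depended on the scaling. Of 49, 13 were lower and 0 higher, with a median of -0.48, but 46 were lower with quantile normalization (median -1.09), 8 lower and 1 higher with scaling to the median of kept probes, and 4 lower with normexp. Rpl4 was at 1.98, 2.08, 2.48 and 2.58 against 4.03, 3.98 and 3.11 (-1.43 ± 0.25, adjusted p = 0.000832), and Rpl5 (-1.10 ± 0.27) and Rps6 (-1.15 ± 0.29) were lower too. Set against WAT knockout 4 by itself, 0 of 49 were called, and the median was 0.10.

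Macrophage genes were lower in BAT in part. Of 20 macrophage and dendritic cell genes 13 were lower and 0 higher, with a median of -1.66. Lyz2, lysozyme, was at -1.92, -2.59, -1.62 and -1.76 in BAT against 2.40, 2.27 and -0.01 in WAT (-3.53 ± 0.49, adjusted p = 0.000162). C1qa, a complement C1q chain made by tissue macrophages, was at 0.49, 0.17, 0.58 and 0.01 against 2.94, 2.71 and 1.69 (-2.13 ± 0.31, adjusted p = 0.000212). Csf1r, the macrophage growth factor receptor, was 4.47-fold lower (-2.16 ± 0.32), with its other probes at -2.24 and -0.55. Timd4, a receptor of resident macrophages that take up dying cells, was well above background on no BAT knockout array and was at least 17.0-fold lower (adjusted p = 0.000348), a call lost against WAT knockout 4 alone (adjusted p = 0.0554). With WAT knockout 4 as the sole WAT sample, 6 of 20 were lower, with a median of -1.09.

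Chemokine genes held members in both directions, with 13 of 30 lower and 5 higher and a median of -0.83 (5 lower and 3 higher with normexp). Ccl2, which recruits monocytes, was at -1.93, -2.73, -2.85 and -2.65 in BAT against 0.55, 0.37 and 0.00 in WAT (-2.85 ± 0.26, adjusted p = 5.75e-06) and differed little among WAT samples. Cxcl16 was lower (-2.68 ± 0.42), and Cxcl14, a chemokine that brown fat secretes, was higher (2.83 ± 0.38, adjusted p = 0.000127; BAT 2.63, 2.24, 2.03 and 2.10, WAT -1.14, -1.07 and 0.45). The other members higher in BAT were Ccl27a (2.19), Ppbp (2.81), Cxcl9 (0.86) and Cxcl12 (1.06). When WAT knockout 4 alone stood for WAT, 6 were lower and 1 higher.

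The mesothelium covers visceral fat pads, and part of its genes were lower in BAT. Of 14 tested 8 were lower and 0 higher, with a median of -2.39, and against WAT knockout 4 alone 10 were lower, with a median of -4.34. With normexp 3 of the 14 were lower. Msln, mesothelin, was at -4.45, -4.73, -4.79 and -3.53 in BAT and at -0.53, 0.23 and 3.15 in WAT (-5.33 ± 0.73, adjusted p = 0.000146), and was well above background on 1 of 4 BAT knockout arrays. Wt1, a mesothelial transcription factor gene, was at -6.32, -6.59, -6.87 and -6.78 against -3.48, -2.88 and -1.09, was well above background on no BAT knockout array and was at least 4.27-fold lower (adjusted p = 2.3e-05). With normexp background correction the Wt1 difference was -0.99 (adjusted p = 0.129). Gpm6a, well above background on 1 of 4 BAT knockout arrays, was lower (-4.52 ± 0.80, adjusted p = 0.00103), by a difference of -1.44 (adjusted p = 0.0146) with normexp. In both Msln and Wt1 the order among WAT samples was the reverse of that of Ms4a1. The genes Upk1b and Upk3b were well above background on no BAT knockout array.

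Fibroblast and extracellular matrix genes were mostly not called, with 5 of 30 lower and 1 higher and a median of 0.12. Dpp4, a marker of fibroblast progenitors and of lymphocytes, was at -2.52, -3.12, -1.56 and -2.81 against 1.73, 1.48 and -0.58 (-3.38 ± 0.52, adjusted p = 0.000374). Fn1, fibronectin, was lower (-2.35 ± 0.40), as were Thy1 (-2.59 ± 0.58), Timp1 (-1.40 ± 0.33) and Timp2 (-1.47 ± 0.38), and Pdgfrb was higher (1.07 ± 0.36). Col1a1 differed by 0.53 ± 0.50 (95% interval -0.55 to 1.60, adjusted p = 0.487). In the comparison with WAT knockout 4 alone, 12 of 30 were lower and 0 higher, with a median of -1.22, whereas without it 11 were higher and 5 lower, with a median of 0.73.

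Endothelial genes moved in both directions. Of 20, 8 were higher and Plvap alone was lower, with a median of 1.04. Plvap, the diaphragm protein of fenestrated capillaries, was at 0.93, 0.55, 0.77 and 0.59 in BAT against 3.38, 3.26 and 4.02 in WAT (-2.84 ± 0.21, adjusted p = 1.52e-06), and differed little within either depot. Flt1, a VEGF receptor, was at 6.07, 5.78, 5.12 and 4.98 against 2.58, 2.84 and 4.83 (2.07 ± 0.43, adjusted p = 0.00289), and Kdr, the main VEGF receptor, was 3.32-fold higher (1.73 ± 0.29). Against WAT knockout 4 alone Plvap was at -3.31 (adjusted p = 2.62e-05), Flt1 at 0.66 (adjusted p = 0.316) and Kdr at 1.01 (adjusted p = 0.0877), and the list had 0 higher and 2 lower members, with a median of -0.34. Vegfa, whose product these receptors bind, was at 3.51, 3.88, 4.31 and 4.70 against 0.56, 0.81 and 3.03 (2.63 ± 0.47, adjusted p = 0.00109). Its difference from WAT knockout 4 alone was smaller, at 1.07, and the call was lost.

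Secreted factors of fat formed no common pattern. Of 22 adipokine and batokine genes 5 were higher and 3 lower, with a median of -0.01. Nrg4, a factor that brown fat secretes, was at 4.31, 4.42, 4.50 and 4.56 in BAT against -1.01, 0.19 and 3.43 in WAT (3.58 ± 0.70, adjusted p = 0.00186; 1.02, adjusted p = 0.0274 against WAT knockout 4 alone). Nampt, an NAD synthesis enzyme also found in blood, was 5.16-fold higher (2.37 ± 0.35). Besides Lep, the lower members were Slit2 (-2.27 ± 0.52) and Gdf15 (-1.23 ± 0.27), and Apln (1.49 ± 0.39) and Angptl4 (1.54 ± 0.52) completed the higher ones. Set against WAT knockout 4 by itself, 2 were higher and 9 lower, with a median of -0.76.

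Genes that glucocorticoid is known to induce were measured here in tissue labelled as adipose GR knockout. The Nr3c1 difference, knockout minus control, was -1.03 in BAT (limma adjusted p = 0.0814) and -0.66 in WAT (limma adjusted p = 0.210), and neither passed. Of 30 tested, 11 were higher and 2 lower in BAT, with a median of 0.35. Besides Pdk4, Rgs2, a regulator of G protein signalling, was at 5.87, 5.29, 5.77 and 7.08 in BAT against 3.17, 2.90 and 1.40 in WAT (3.51 ± 0.46, adjusted p = 0.000111). The metallothionein gene Mt1 was at 5.22, 5.14, 5.22 and 5.42 against 1.91, 2.06 and 4.26 (2.50 ± 0.45, adjusted p = 0.00115). Cebpd (-0.88 ± 0.22) and Mertk (-0.62 ± 0.17) were lower. Fkbp5 (-1.03 ± 0.71), Tsc22d3 (-0.30 ± 0.30) and Per1 (0.50 ± 0.37), which are among the most used readouts of the receptor, did not pass and were singled out after their values were seen. With WAT knockout 4 as the sole WAT sample, 2 were higher and 5 lower, with a median of 0.14.

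Further cell types were represented by few calls. Hba-a1, an alpha globin gene, was at 8.34, 8.07, 7.60 and 7.51 in BAT against 2.53, 4.03 and 7.34 in WAT (3.25 ± 0.76, adjusted p = 0.00577), and Alas2, of haem synthesis in red cells, was higher with it (3.11 ± 0.73), in a list of 4 higher of 7 and a median of 1.36. WAT knockout 4 lay close to the BAT samples in Hba-a1, and against it alone 0 of 7 erythroid genes were called. S100b, a calcium-binding protein of Schwann cells that brown adipocytes also secrete, was at 6.56, 6.37, 5.06 and 5.08 against -0.61, -0.10 and 1.55 (5.49 ± 0.49, adjusted p = 5.42e-06), while the nerve list as a whole had 3 of 15 higher and 1, Cnp (-1.96 ± 0.47), lower. Of 14 mast cell and granulocyte genes, Hdc (1.56 ± 0.37) and Mcpt4 (1.50 ± 0.51) were higher and S100a8 (-1.53 ± 0.40) and Mpo (-0.95 ± 0.31) lower.

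Of 19 mammary epithelial genes, Esr1, the oestrogen receptor gene (2.44 ± 0.41, adjusted p = 0.000665; 0.79 with its other probe), and Krt5 (0.86 ± 0.29) were higher and Csn2 (at least 1.72-fold, adjusted p = 0.0175) and Krt18 (-2.33 ± 0.70) lower. Csn2, beta-casein, was at -2.12 and -2.41 in WAT knockouts 1-2 and 3 and at -6.85 in WAT knockout 4, and was well above background on no BAT knockout array. It was high in the WAT samples with most lymphoid transcripts. In the intestinal epithelial list 0 of 19 genes were called, with 0 higher and 0 lower and a median of -0.54, and by limma 1 of the 19 had an unadjusted p under 0.05, beside 40.3% of all features. With normexp background correction 0 were called as well.

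The genes with the largest falls differed in how they ran across WAT samples. Slpi, a secreted leukocyte protease inhibitor, was at -4.03, -4.69, -3.61 and -2.57 in BAT and at 4.37, 4.20 and 4.42 in WAT, so that it was nearly constant over WAT samples of very unlike cell content (-8.06 ± 0.65, adjusted p = 2.71e-06; well above background on 3 of 4 BAT knockout arrays). Clca3a1, a chloride channel accessory gene, was at 0.13, -0.07 and -1.35 in WAT, was well above background on no BAT knockout array and was at least 17.2-fold lower (adjusted p = 5.13e-06). Grem1, a BMP antagonist, was at 1.21, 1.01 and -3.39 in WAT and at least 18.2-fold lower in BAT (adjusted p = 0.000226). Dtx1 (-6.03 ± 0.99), Nsg2 (-5.50 ± 1.35, detected on 1 of 4 BAT arrays), Shisa3 (-5.22 ± 1.09, detected on 2) and Adamdec1 (at least 21.3-fold lower, adjusted p = 0.0279) were high in WAT knockouts 1-2 and 3 and low in WAT knockout 4. When WAT knockout 4 alone stood for WAT, Slpi (-8.14, adjusted p = 0.000436), Clca3a1 (adjusted p = 0.00119) and Grem1 (adjusted p = 0.0149) kept their calls. Dtx1, Nsg2, Shisa3 and Adamdec1 did not (adjusted p = 0.0772, 0.626, 0.329 and 0.850). Of the 95 named genes called here, 94 kept call and direction without WAT knockout 4, and fewer did so against WAT knockout 4 alone. They were mostly picked by large differences or small adjusted p in these data, so they do not stand for all calls. Of all 7683 calls, 392 had the opposite sign against WAT knockout 4 alone.

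The depot contrast was set beside that of controls, which shares no samples with it. In controls 8381 features were called (33.4%), 4792 higher in BAT (19.1%) and 3589 lower (14.3%). Of the features called in knockouts, 5354 were called in controls too, 9 of them in the opposite direction, 2329 were called in knockouts only and 3027 in controls only. A call in 1 genotype alone does not show that the contrasts differ, and the test of the difference itself (knockout depot difference minus control depot difference) called 1 feature of 25107 (0.00398%), with 2616 at an unadjusted p under 0.05 (10.4%). That feature was Slc6a2, the noradrenaline transporter gene, at -6.31, -6.41, -6.69 and -6.60 in BAT knockouts and -7.39, -6.46 and -6.40 in WAT knockouts. It was well above background on no knockout array, on no BAT control array and on all 4 WAT control arrays. So only bounds can be given: WAT controls were at least 1.93-fold above BAT controls and at least 1.86-fold above WAT knockouts. No fold is given between the knockout depots, since Slc6a2 was well above background in neither. The size and p of the interaction rest on signal that was not well above background. This count turned on 1 sample: without WAT knockout 4 it was 4055.

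For the brown adipocyte genes no member passed the test of the difference. Fabp3 differed by 9.12 in knockouts and 8.90 in controls, Cpt1b by 7.84 and 7.70, and Ucp1 by 11.58 and 12.78 (interaction -1.20, adjusted p = 0.682). The contrasts lay farther apart for Cidea (5.90 and 4.17, interaction adjusted p = 0.460), Cox7a1 (8.27 and 6.70, adjusted p = 0.561) and Slc27a2 (8.54 and 7.27, adjusted p = 0.688). The list median was 4.77 against 4.17, and those of respiratory chain and fatty acid oxidation genes were 2.67 against 2.32 and 3.33 against 2.90. Mesothelial genes had a median of -2.39 in knockouts and -5.79 in controls, with 14 of 14 called lower in controls, and extracellular matrix genes 0.12 and -1.57, with 22 of 30 called lower in controls. Intestinal genes had -0.54 and -4.29. Their summed signal was 792, 4.10, 14.6 and 335 times the 75th percentile in WAT controls 1 to 4 and 5.06 to 7.63 times in WAT knockouts. The WAT controls were thus not alike in these genes, and WAT control 2 lay below every WAT knockout sample. Since Slc6a2 was the only feature past the test of the difference, the shifts of these 3 lists rest on no member that passed it, and the part of cell content was not tested.

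**Figure D5:**
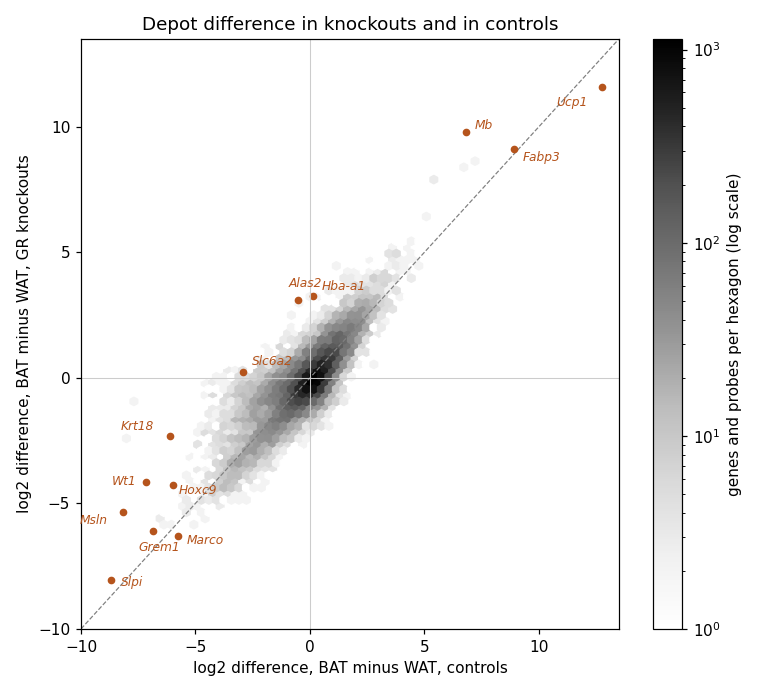
Log2 difference, BAT minus WAT, of 25107 genes and probes in GR knockouts (vertical axis) against controls (horizontal axis); grey hexagons give the number of features on a log scale, the dashed line marks equal differences and 13 genes are labelled. Ucp1, Fabp3 and Slpi lie near the line, Wt1, Msln and Krt18 lie above it on the left, and Slc6a2, well above background in WAT controls only, is drawn at its fitted values of -2.94 and 0.25.

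Each of the 4 slides held 1 array of each group, always at the same position for a given group, so a position effect and a group effect cannot be told apart. Within slides 1 to 4 the median difference of the brown adipocyte list was 4.45, 5.50, 3.70 and 5.82, and that of respiratory chain genes was 3.06, 3.07, 1.71 and 3.12. For the B cell list it was -5.90, -6.65, -0.93 and -6.78, and for the pan-adipocyte list 2.09, 2.88, -0.29 and 3.04. Slide 3 held WAT knockout 4, and slides 2 and 4 held the WAT knockout arrays 2 and 1 that count as 1 sample, so these values rest on 3 WAT samples.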

How the data were processed

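RNA of 16 samples was hybridised to 1-colour Agilent arrays, per the labels. The authors deposited scanner files of spot intensity, which per the file headers come from Feature Extraction 12.0.0.7 and are background-subtracted and detrended within an array but not scaled between arrays. A table of the same deposited processed signals was tried as an alternative. The flags for spots well above background are also the authors' deposited values.

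From these, log2 processed signal minus the array's 75th percentile was computed, outlier spots were left out and spots of a probe were averaged. Probes well above background on at least 3 arrays of a group were kept. A gene took its probe with the highest mean level, named through RefSeq accessions (GRCm38.p6), which gave 16677 genes and 8430 unnamed probes. WAT knockout arrays 1 and 2 were averaged. limma 3.58.1 (R 4.3.3) fitted 1 mean per group over 15 samples, with 11 residual degrees of freedom and Benjamini-Hochberg adjustment over 25107 features at 0.05. A bound ("at least") sets the brighter group's mean against the higher, per array, of the dim probe's own signal and the lowest signal well above background.

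Named genes were the given markers, Nr3c1, the 12 largest rises and 12 largest falls without overlap, up to 3 members of each of 28 lists by adjusted p, and up to 5 genes each way past the test between genotypes (1 passed), 97 in all. Other list members with values were chosen after their values were seen. Comparison, members and lists were chosen with earlier results of these data known. Tested on simulated data with independent noise and 1 spread per gene for all groups, the fit called 22.4%, 70.1% and 86.4% of changes of 1, 2 and 3 on the log2 scale. The unlike spreads of the groups and the split among WAT knockouts were not simulated, so these shares need not hold for this comparison. Alternatives were background correction (normexp, on the median spot signal), normalization, probe filter and choice, blocks, the deposited table and left-out samples. Some genes past the threshold are counted but not reported by name here.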

Additional observations from a re-analysis of the deposited data

Results flagged for a closer look

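In 125 sets of 4 BAT knockout values (97 genes and 28 list levels), 4 had a sample far from the other BAT samples, where chance flags about 1 set in 20. Pank1 was at 2.38 in BAT knockout 1 and at 2.79 to 2.83 in the others. Pparg was at 5.64 in BAT knockout 4 and at 5.31 to 5.36 in the others. Gpm6a, of mesothelium, was at -3.48 in BAT knockout 4 and at -6.68 to -6.54 in the others, and was well above background on 1 BAT knockout array. The pan-adipocyte list level was 0.29 in BAT knockout 3 and 0.49 to 0.50 in the others. Groups of 3, such as the WAT knockouts, were not examined in this way.

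For Slc6a2 the fitted depot contrasts of knockouts and controls were 3.19 apart (limma adjusted p = 0.00374), the only feature past that test. Its level was -3.89, -3.93, -4.22 and -3.96 in WAT controls, where it was well above background on all arrays. In the other 3 groups it was well above background on no array, so the fitted value is set against undetected signal. Measured against the level an array needs, WAT controls were at least 1.93-fold above BAT controls and at least 1.86-fold above WAT knockouts.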

How the results depend on the processing

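With normexp background correction 2328 features were higher and 1302 lower, with 0 in the test of knockout against control contrasts, and 64.1% of calls were higher in place of 54.4%. Fitted on knockout samples alone, 1852 were higher and 1138 lower. Against WAT knockout 4 alone there were 1502 higher and 1333 lower (4 in the test between genotypes), and of the 7683 calls 2036 were kept in direction and 392 had the opposite sign. Without BAT knockouts 2 and 3 there were 2528 higher and 1392 lower (0 between genotypes). Both of these were added after the data were seen. The count between genotypes was 2 with quantile normalization, with median scaling and with the WAT knockout arrays 1 and 2 as 2 samples, and 0 with slide as a block. Leaving out 1 sample at a time gave 2742 to 5973 higher, 1619 to 5483 lower and 1 to 4055 between genotypes. The highest of each came without WAT knockout 4, the lowest lower count (1619) without WAT knockout 3 and the lowest higher count (2742) without WAT knockout 1-2, and without WAT control 2 the count between genotypes was 14.

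The replicate block gave 3851 higher, 3309 lower and 0 between genotypes. Same-numbered knockout samples correlated by -0.06, 0.02, -0.26 and 0.09 in their deviations, and same-numbered control samples by 0.177, 0.098, 0.054 and 0.052. With 4 arrays per group such values cannot decide whether the numbers pair the samples. Whether BAT and WAT came from the same mice is not given.

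Against WAT knockout 4 alone the sign changed for Csn2 (0.19) and for 7 of 28 list medians: pan-adipocyte (-0.13), endothelial (-0.34), matrix (-1.22), mast cell (-0.21), fatty acid synthesis (-0.077), lipolysis (-0.051) and ribosomal genes (0.10). With normexp it changed for mammary (0.049), Hox (0.025) and adipokine genes (0.085), and with quantile normalization for Hox (0.087) and matrix genes (-0.25). Medians of Hox, adipokine, mast cell and matrix genes, close to 0 as reported, also changed sign under other settings. The count of lower members moved by over 1.5 times in 15 of 28 lists with normexp and in 6 with quantile normalization, and the count of higher members in 6 and in 1. The causes were not tested. Under all 28 alternatives Ucp1 stayed between 9.66 and 12.53, Fabp3 between 7.84 and 9.50 and Cpt1b between 7.05 and 8.10, each called. With normexp the calls of Adamdec1, Gzma, S100a8, Mpo, Wt1, Csn2, Krt18 and Cdk1 were lost, with adjusted p between 0.0735 and 0.870. Wt1, Csn2, Cdk1 and Adamdec1 were well above background on no BAT knockout array by the probe used, and the other 4 on all of them. Nr3c1 was called under none of the 28.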

Other observations

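Some genes outside the lists separated the depots by a wide gap in all samples, and were chosen after their values were seen. Kng1, which encodes kininogen, was at 2.24, 1.94, 1.88 and 2.04 in BAT knockouts and at -5.06, -3.79 and -4.28 in WAT knockouts (6.40 ± 0.34, limma adjusted p = 1.24e-07), where it was well above background on 2 of 4 arrays. Cpn2, a subunit of the carboxypeptidase that trims kinins, was at 2.22, 2.37, 2.38 and 2.57 against -3.94, -2.72 and -3.40 (5.73 ± 0.42, adjusted p = 1.45e-06). Among genes lower in BAT, Casp4, an inflammatory caspase, was at -0.77, -1.18, -0.45 and -0.64 against 2.95, 2.79 and 2.72 (-3.58 ± 0.21, adjusted p = 1.84e-07), and Casp1, which matures interleukin-1, differed by -3.45 ± 0.26. Aldh1a2, which makes retinoic acid, was at -2.78, -3.57, -3.12 and -4.24 against 1.98, 1.72 and 1.09 (-5.03 ± 0.32, adjusted p = 4.01e-07). These values varied little over the WAT samples, unlike those of Ms4a1, and the control contrasts were 5.99 for Kng1, 6.72 for Cpn2, -3.64 for Casp4 and -4.88 for Aldh1a2.

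Of the 9 features called in opposite directions in knockouts and controls, 6 were named genes. Foxo6, a forkhead factor gene, differed by 1.59 in knockouts and -1.82 in controls, and Mcpt4, a mast cell protease, by 1.50 and -1.54. Fosl2 (0.71 and -0.72), Nxph3 (0.94 and -0.83), Imp4 (-0.69 and 0.59) and Tmem243 (-0.75 and 0.57) were smaller. The lowest adjusted p of the difference between contrasts among these 9 was 0.284, so none passed that test.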
